A study of Mus musculus with 18 samples.

Results

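The first 12 hours of culture of the mouse inner cell mass (ICM) were examined in 4 of the 18 small-RNA libraries of a time course that follows the ICM until embryonic stem cell (ESC) lines form. The 4 libraries were chosen by their labels alone: 2 from freshly isolated ICMs (day 0) and 2 from ICMs seeded 12 hours earlier (day 0.5). All 1390 listed mature miRNA entries were considered. The full series has 9 stages with 2 libraries each, and the 6 libraries of days 1, 2 and 3 entered only the estimate of the spread and the later levels given at the end.

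All embryos were of the NMRI strain, with no genetic change that separates the groups. The inhibitors in the culture medium, given below, reached only the 12-hour group. Blastocysts were flushed at E3.5 from superovulated females, their zona was dissolved in acidic Tyrode's solution, and the outer cells were killed with anti-mouse serum and guinea pig complement. The ICM group was collected then. The 12-hour group had been moved to gelatin-coated dishes in N2B27-based R2i medium, which holds leukemia inhibitory factor, the MEK inhibitor PD0325901 at 1 µM and the TGF-beta receptor inhibitor SB431542 at 10 µM. How many embryos were pooled for a library, and whether the replicates came from separate batches of embryos, is not given in the sources used here. The p-values therefore measure only the spread between these libraries, which may be technical. Time in culture, the medium, the dish and recovery from surgery change together between the groups and cannot be told apart. In such bulk samples, fewer cells of a type and less RNA per cell cannot be told apart either.

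miRNAs are short RNAs cut from hairpin transcripts by Drosha and Dicer and loaded into Argonaute proteins, where bases 2 to 8 of the mature strand, the seed, pair with messenger RNAs that are then repressed. Either arm of a hairpin can be loaded, and miRNAs that share a seed share many targets. Cells of the ICM and ESCs are rich in the miR-290/miR-295 cluster, which supports rapid division, and poor in let-7, which rises with differentiation. Numbers in miRNA names follow the order of registration. Long-known, conserved miRNAs mostly carry low numbers, and many entries numbered 1900 or higher were registered from deep sequencing with little independent evidence. Here the number served as a simple border: 721 entries, let-7 included, lie below 1900 and 669 lie at 1900 or above.

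The mature sequences below belong to the miRNAs on which the results turn, from the RefSeq annotation of GRCm38.p6, in which 1169 of the 1390 names were found. They run 5′ to 3′, and capitals mark the seed. The first set rose by 12 hours and is numbered below 1900. miR-1247 and miR-346 give GC-rich strands, whereas miR-26a-5p and miR-323-3p have the mixed composition common among conserved miRNAs.
miR-212-5p: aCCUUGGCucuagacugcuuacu
miR-346-5p: uGUCUGCCcgagugccugccucu
miR-1247-5p: aCCCGUCCcguucguccccgga
miR-1247-3p: cGGGAACGucgagacuggagc
miR-28a-3p: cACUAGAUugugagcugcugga
miR-434-5p: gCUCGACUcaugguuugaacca
miR-125a-3p: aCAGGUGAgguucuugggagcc
miR-676-3p: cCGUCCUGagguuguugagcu
miR-323-3p: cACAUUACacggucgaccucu
miR-341-3p: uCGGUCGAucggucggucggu
miR-26a-5p: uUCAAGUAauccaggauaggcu
miR-27b-3p: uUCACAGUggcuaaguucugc

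The second set fell and is numbered below 1900. It holds a strand of miR-30a and one of its relative miR-30c-2, with different seeds because they come from opposite arms.
miR-30a-5p: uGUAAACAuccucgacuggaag
miR-30c-2-3p: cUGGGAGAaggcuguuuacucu

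The third set is numbered 1900 or higher. miR-5126, miR-2137, miR-7016-3p and miR-6921-5p rose and the others fell. The strand of miR-5126 consists of G and C only, 77.3% of it G, and that of miR-2137 is 85.7% GC. miR-6921-5p is printed above miR-423-5p, an abundant miRNA with the same seed, so that the shared bases can be seen.
miR-5126: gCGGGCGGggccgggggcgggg
miR-2137: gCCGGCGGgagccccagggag
miR-7016-3p: aCCUGCCUccugcucuccccag
miR-6921-5p: uGAGGGGCaugagguaggaagc
miR-423-5p: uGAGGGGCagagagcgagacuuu
miR-6968-5p: aGGGGGCGagggggcccugugg
miR-6236: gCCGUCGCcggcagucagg
miR-7000-5p: aGGGGACAgguaucuggacaga
miR-7667-5p: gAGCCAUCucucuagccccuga
miR-6905-3p: aAAUAACCuuaucugcccgau
miR-7005-5p: cCUGGGGAugggaggaccagca

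The deposited values are normalized counts rounded to whole numbers. In each of the 4 libraries they fell on multiples of a fixed step, the value of 1 read, which gives an estimated depth of 111000 and 202000 reads for the ICM libraries and of 369000 and 213000 for the 12-hour libraries. Nothing under 5 reads is listed, so a listed 0 means fewer than 5 reads. The shallowest library, ICM replicate 1, lists 428 miRNAs above 0 and the others 589 to 730. Values below 27.2, the worth of 5 reads in that library, were raised to 27.2 before log2 was taken, and a miRNA was tested when at least 2 of the 4 libraries were above this floor. A group whose libraries were all raised to the floor shows no spread. For such miRNAs the p-value leans more on the spread of other miRNAs. At 5 reads the counting error alone is 44.7%, and intervals from counting cover no other source of error. Over the 448 tested miRNAs, the log2 levels of the ICM replicates correlated with r = 0.92 and those of the 12-hour replicates with r = 0.94, against 0.85 to 0.91 between the groups. These are correlations across miRNAs, which are not independent replicates.

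After 12 hours in culture, miRNAs had changed in both directions. Of the 448 tested, 34 rose (7.59% of those tested) and 17 fell (3.79%) at an adjusted p below 0.05 (limma, Benjamini-Hochberg over all tested). The median change over all tested was 0.01 on the log2 scale, and 228 of the 448 (50.9%) lay above 0, a balance that the normalization of the deposited counts can set. The median size of a change was 0.53, against a median difference of 0.46 between the ICM replicates and 0.40 between the 12-hour replicates. At an unadjusted p below 0.05, 74 were higher (16.5%) and 61 lower (13.6%). Changes of the 34 ran from 0.77 to 3.62 and those of the 17 from -4.53 to -0.63. In all 51 both libraries of one group lay above both of the other. Groups did not overlap in 123 tested miRNAs in the upward and 108 in the downward direction, so separation alone was common.

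How many miRNAs fell depended on the scale. Rescaling the libraries to the same total moved the median of all tested by -0.14 and gave 28 higher and 26 lower, in place of 34 and 17. With the spread taken from the 4 libraries alone, 4 rose (0.893% of those tested) and 4 fell (0.893%). Those 8 were miR-212-5p, miR-3960, miR-5126 and miR-2137, which rose, and miR-486-5p, miR-3107-5p, miR-7000-5p and miR-6968-5p, which fell. Without 12-hour replicate 2 only 10 rose, and without ICM replicate 2 it was 52.

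Among canonical miRNAs, taken as the entries below number 1900, rises outnumbered falls. Of the 303 tested in this class, 22 rose (7.26%) and 6 fell (1.98%), with a median change of 0.07. Among the 145 tested entries numbered 1900 or higher, 12 rose (8.28%) and 11 fell (7.59%), with a median of -0.05. Canonical entries were thus 22 of the 34 rises and 6 of the 17 falls. Both ICM libraries lay at or below the floor in 2 canonical and 5 high-numbered rises, and both 12-hour libraries in 2 and 4 falls. These were tested only through the group where they were high. Of the 215 canonical and 69 high-numbered entries above the floor in all 4 libraries, 14 and 5 rose and 4 and 5 fell. The miR-465 strands have identical values, and so do miR-486-5p and miR-3107-5p across the classes. Counted once, 32 rose in all. The difference between the classes was not tested, since entries are not replicates.

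Which class held more of the rises depended on the setting. There were 3 canonical against 9 high-numbered rises with array weights, 5 against 9 without the filter, and 1 against 3 with the spread from the 4 libraries. Leaving out 12-hour replicate 2 gave 4 against 6, so under these settings most rises were high-numbered. Leaving out ICM replicate 1 gave 14 canonical rises, and leaving out ICM replicate 2 gave 33 against 19 and 7 high-numbered falls. When rescaled to the same total, 16 canonical miRNAs rose and 11 fell, with 12 and 15 among the high numbers. When centred on the median miRNA, 24 canonical miRNAs rose and 3 fell, with 14 and 13 among the high numbers.

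**Figure D1:**
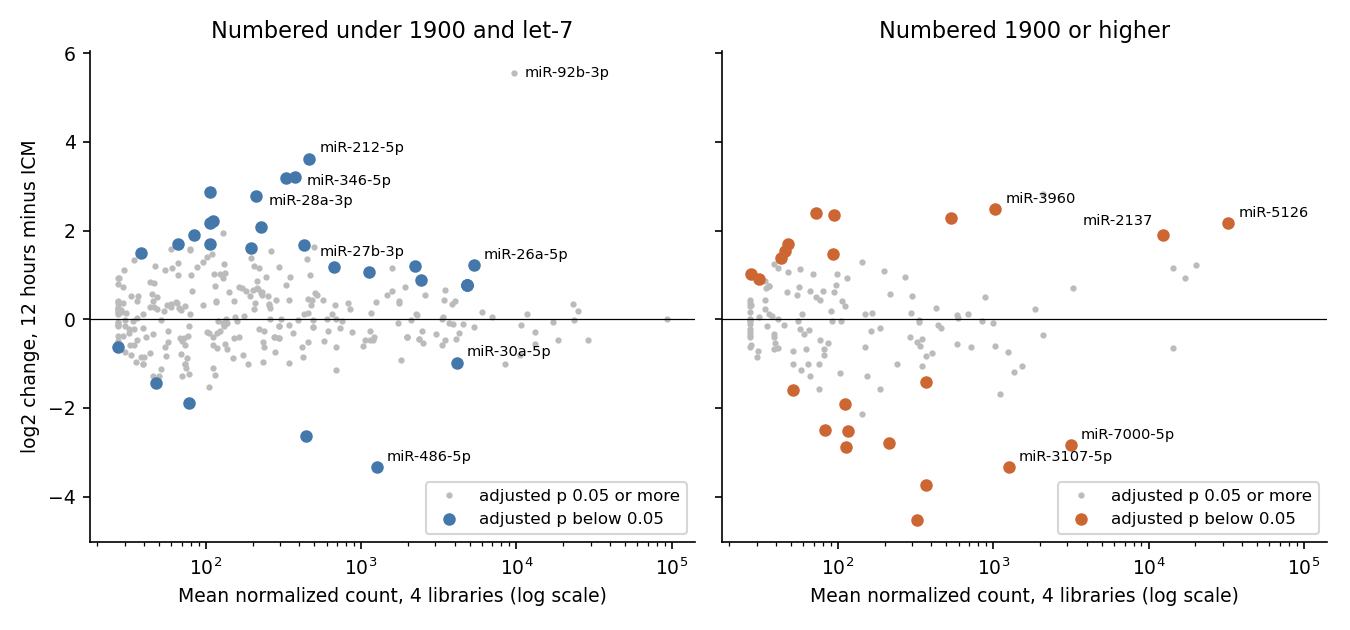
Each point is a tested miRNA, with the mean normalized count of the 4 libraries on a log axis and the log2 change from ICM to 12 hours on the other; coloured points have an adjusted p below 0.05 and the left and right panels show the classes below and at or above number 1900. miR-5126 and miR-2137 combine a high level with a rise of about 2 log2 units, and miR-92b-3p has the largest difference (5.55) without passing the test.

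The sharpest canonical rise was that of miR-212-5p. This miRNA is made from the primary transcript that also carries miR-132 and is known as a target of the transcription factor CREB. It read 98 and 47 normalized counts in the ICM libraries and 672 and 1029 at 12 hours. Both 12-hour libraries were far above both ICM libraries, and the log2 change was 3.62 (SE 0.44, limma adjusted p = 0.00157), a 12.3-fold rise on the floored scale. The mature strand lies at chr11:75173403-75173425 (GRCm38, plus strand), within an intron of 1700016P03Rik. The other strand of the hairpin, miR-212-3p, was listed at 0 in all 4 libraries. miR-132-3p read 0 and 37 in the ICM and 12 and 0 at 12 hours, and miR-132-5p was at 0 throughout, so no partner rise was seen at this depth.

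miR-346-5p, whose hairpin lies in an intron of the glutamate receptor gene Grid1 (chr14:34894624-34894646, plus strand), read 27 and 133 in the ICM and 300 and 1033 at 12 hours. The groups did not overlap, but the 12-hour libraries differed more from each other than those of miR-212-5p. Its log2 change was 3.21 (SE 0.78, limma adjusted p = 0.034). Its other arm, miR-346-3p, was at 0 in both ICM libraries, at 9 in 12-hour replicate 1 and at 909 in 12-hour replicate 2, so a single library carried it and it was not tested. Without ICM replicate 1 the change of miR-346-5p was 2.07 and the call was lost, as it was without 12-hour replicate 2.

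Both arms of miR-1247 rose. This hairpin lies in a noncoding exon of Dio3os, the antisense gene at the far end of the imprinted Dlk1-Dio3 region (5p arm at chr12:110278094-110278115, minus strand). miR-1247-5p went from 27 and 143 to 506 and 630, a log2 change of 3.18 (SE 0.76, limma adjusted p = 0.0312). miR-1247-3p went from 0 and 22 to 158 and 248, with a log2 change of 2.86 (SE 0.50, limma adjusted p = 0.00845). The ICM values of the 3p arm lay below the floor, so the size of its change depends on the floor. The 5p change was 1.98 without ICM replicate 1, and its call needed that library and both 12-hour libraries. The 3p call held without either ICM library and was not testable without either 12-hour library.

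miR-28a-3p, from an intron of Lpp (chr16:24827908-24827929, plus strand), read 44 and 65 in the ICM and 338 and 396 at 12 hours. The 4 values fell into well separated pairs, and the log2 change was 2.77 (SE 0.47, limma adjusted p = 0.00776). Its other arm, miR-28a-5p, moved from 92 and 161 to 282 and 283, with a change of 1.21 that did not pass (limma adjusted p = 0.0526). Leaving out 12-hour replicate 2 ended the call of miR-28a-3p.

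miR-125a-3p and miR-676-3p also rose. The first is the lesser-known strand of miR-125a, a relative of lin-4. It read 60 and 0 in the ICM and 182 and 184 at 12 hours, with a log2 change of 2.18 (limma adjusted p = 0.0433). The main strand, miR-125a-5p, read 4051 and 5442 in the ICM and 4195 and 3393 at 12 hours, and its groups overlapped (change -0.32). miR-676-3p, in an intron of the ectodysplasin gene Eda on the X chromosome, went from 49 and 140 to 310 and 403, with a change of 2.09 (limma adjusted p = 0.0201). Its change without ICM replicate 1 was 1.34. Both calls were lost without either 12-hour library, and that of miR-125a-3p also without ICM replicate 2.

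**Figure D2:**
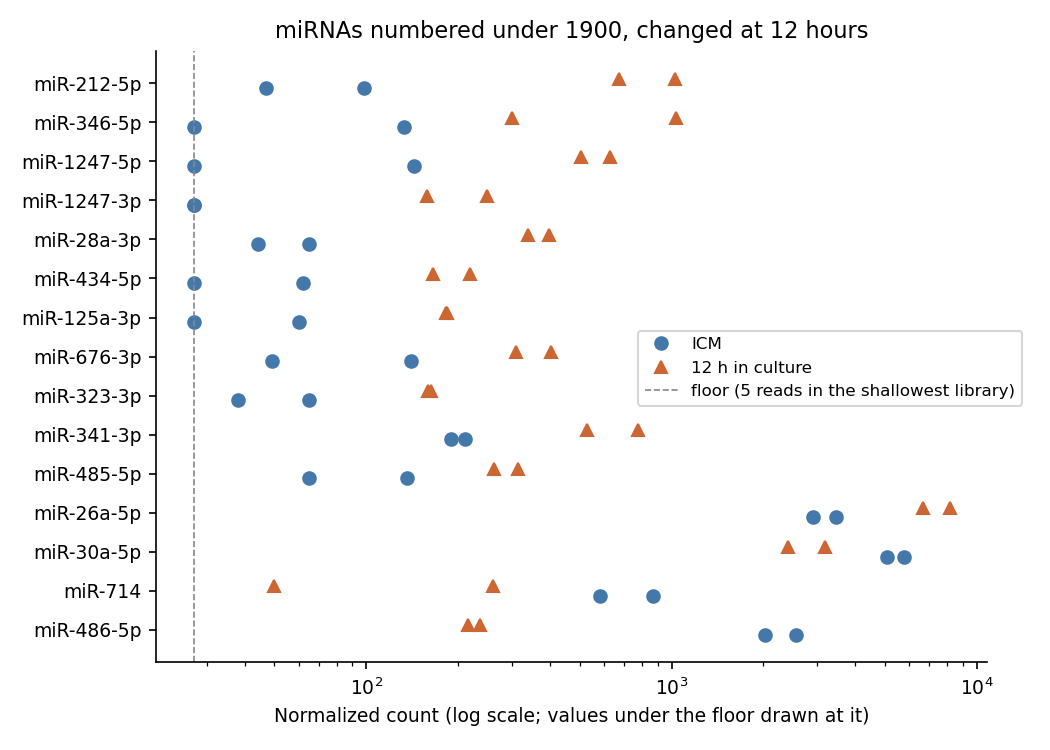
Normalized counts on a log axis for canonical miRNAs that changed and had a mean of at least 100, ordered by log2 change. The 12 largest of 19 such rises and all 3 such falls are drawn, with ICM libraries as circles and 12-hour libraries as triangles. Among the rises not drawn are miR-27b-3p, miR-409-3p and miR-410-3p. In each line both symbols of one kind lie to the right of both of the other; the 6 ICM points at the dashed floor stand for values of 27 or less.

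Among abundant canonical miRNAs the rises were smaller and rested on more reads. miR-26a-5p, a conserved miRNA known to repress Ezh2 and hosted in an intron of Ctdspl, read 2915 and 3454 in the ICM and 6691 and 8144 at 12 hours. Both 12-hour libraries lay well above both ICM libraries, and the log2 change was 1.22 (SE 0.23, limma adjusted p = 0.0119). Its relative with the same seed, miR-26b-5p, read 207 and 115 against 239 and 209, a change of 0.53 that did not pass. miR-27b-3p, clustered with miR-23b and miR-24, went from 1142 and 1557 to 2582 and 3651, with a change of 1.20 (SE 0.28, limma adjusted p = 0.0301). Its other arm, miR-27b-5p, had overlapping groups (82 and 78 against 50 and 103). So did its cluster partner miR-23b-3p, at 125 and 171 against 217 and 106 (change 0.05). miR-24-3p, at 38 and 0 against 24 and 18, was not tested. The calls of miR-26a-5p and miR-27b-3p were lost without ICM replicate 1 and without 12-hour replicate 2.

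The remaining canonical rises outside the Dlk1-Dio3 list, all but miR-133a-3p named to complete the count and not by the rule, were miR-133a-3p, miR-221-5p, miR-335-3p, miR-151-5p, and miR-465a-3p, miR-465b-3p and miR-465c-3p. The miR-465 strands come from an X-linked cluster known from germ cells, share 1 sequence and had identical values, so they count as 1 measurement. They read 3257 and 3845 in the ICM and 5255 and 6905 at 12 hours, the smallest rise of all (0.77). miR-151-5p went from 669 and 757 to 1227 and 1829 (change 1.07). miR-335-3p, hosted by the imprinted gene Mest in an intron, was listed at 0 in both ICM libraries and at 80 and 74 at 12 hours, which is 46 and 21 reads. Its call was lost under most other settings, rescaling included, and without either ICM library. The calls of the miR-465 strands were lost when rescaled to the same total and, like that of miR-221-5p, without ICM replicate 1 or 12-hour replicate 2. That of miR-151-5p was lost without either ICM library or 12-hour replicate 2. No other arm of these hairpins passed. miR-335-5p was flat at 38 and 31 against 40 and 28 (change -0.04), and miR-465c-5p at 2235 and 2195 against 2233 and 2487 (change 0.09). miR-221-3p read 125 and 40 against 23 and 103 (change -0.42), and miR-151-3p 2431 and 2983 against 3781 and 4712 (change 0.65).

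The Dlk1-Dio3 region encodes a large imprinted miRNA cluster, expressed from the maternal chromosome. Of its 100 listed miRNAs 38 were tested, and 6 of the 38 rose while none fell, beside 7.59% higher and 3.79% lower of all tested. The median change of the 38 was 0.54, against 0.01 over all tested, and 29 of the 38 changes were above 0, against 50.9% of all tested. At an unadjusted p below 0.05, 15 of the 38 were higher and 0 lower, beside 16.5% and 13.6% of all tested. When rescaled to the same total the median was 0.34 and 3 passed. Between 2 (without 12-hour replicate 2) and 10 (without ICM replicate 2) passed when 1 library was left out, and none with the spread of the 4 libraries alone.

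Within the region, miR-434-5p, transcribed opposite to the retrotransposon-like gene Rtl1, went from 0 and 62 to 165 and 219 (change 2.21, SE 0.39, limma adjusted p = 0.00869). Its other arm, miR-434-3p, was much more abundant and went from 1338 and 1057 to 1668 and 1786, a change of 0.54 that did not pass (limma adjusted p = 0.145). miR-323-3p read 38 and 65, then 159 and 163 (change 1.70, limma adjusted p = 0.0194). For each of these 3 strands both ICM libraries lay below both 12-hour libraries.

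miR-341-3p, from an intron of the noncoding gene Rian, read 190 and 211 in the ICM and 528 and 775 at 12 hours (change 1.68, limma adjusted p = 0.0194). Its other arm, miR-341-5p, had overlapping groups, at 114 and 267 against 175 and 368 (change 0.54). miR-485-5p read 65 and 136, then 314 and 262 (change 1.61, limma adjusted p = 0.0294), while its other arm, miR-485-3p, overlapped between the groups at 174 and 360 against 248 and 173. The difference between the arms was not tested. miR-409-3p and miR-410-3p, from the Mirg transcript, complete the 6 and were better counted. They went from 1718 and 1693 to 2940 and 3339 (change 0.88) and from 440 and 378 to 849 and 1008 (change 1.18), with limma adjusted p-values of 0.00826 and 0.00776. These last calls held with each library left out in turn, whereas those of miR-323-3p, miR-341-3p and miR-485-5p were lost when rescaled to the same total and without ICM replicate 1 or 12-hour replicate 2, those of miR-323-3p and miR-485-5p also without 12-hour replicate 1, and that of miR-434-5p without 12-hour replicate 2. The most abundant miRNA of the region, miR-541-5p, was flat at 3796 and 3746 against 4371 and 2904 (change -0.08).

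**Figure D3:**
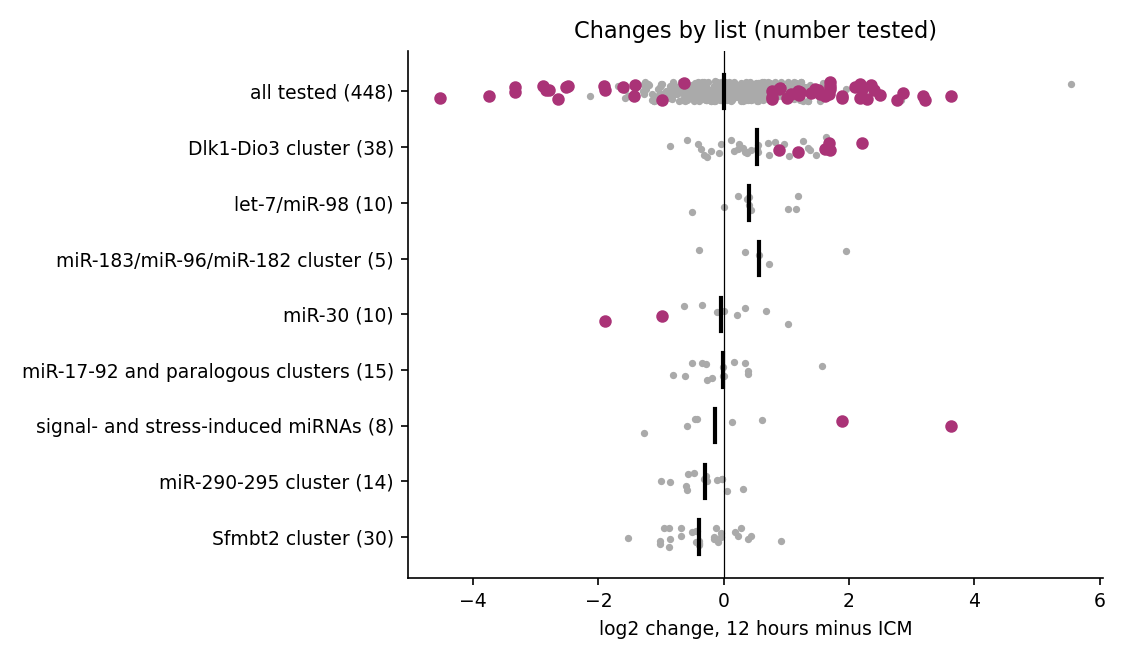
Log2 change from ICM to 12 hours for the tested members of 8 miRNA lists and for all tested miRNAs, with members at an adjusted p below 0.05 as large coloured points, others as small grey points, and the median as a black bar. The Dlk1-Dio3 median (0.54) lies to the right of the median of all tested (0.01), and the medians of the miR-290/miR-295 cluster (-0.30) and the Sfmbt2 cluster (-0.39) to its left.

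The miRNAs that define pluripotent cells had no member past the test. All but 2 of the 16 listed strands of the miR-290/miR-295 cluster were tested, and 0 of these 14 rose or fell, with a median change of -0.30. By unadjusted p below 0.05, 5 of the 14 were lower and 0 higher, beside 13.6% and 16.5% of all tested. With the spread taken from all 18 libraries 3 fell, and 1 did when rescaled to the same total or with 1 added to the deposited values. The cluster made up 17.8% and 15.7% of all normalized counts in the ICM and 12.5% and 10.4% at 12 hours, so the groups did not overlap in this share. Its most abundant strand, miR-292-5p, read 35125 and 32236 in the ICM and 24023 and 24629 at 12 hours (change -0.47, SE 0.14, limma adjusted p = 0.0747). The other strand of the hairpin, miR-292-3p, read 13525 and 9039 against 6582 and 4666 without passing (limma adjusted p = 0.0827). In contrast miR-295-3p was level at 24640 and 22537 against 24820 and 21625 (change -0.02). Its seed, the AAGUGCU of the ESC cell-cycle miRNAs, is carried by 5 entries with a RefSeq sequence, so this strand does not stand for the seed. Other 3p strands of the cluster were lower without passing. miR-294-3p read 4182 and 3774 against 2713 and 2568 (change -0.59), and miR-291a-3p 1452 and 1036 against 875 and 746 (change -0.6). Of the 14 tested strands, 2 had a change above 0.

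miR-302 and miR-367, which take the place of miR-290/miR-295 in the primed epiblast, were not testable in these 4 libraries, with none of 9 strands above the floor in 2 of them. let-7 and miR-98 had 10 tested strands and no call. Their median was 0.40, and 4 of the 10 were higher at an unadjusted p below 0.05, beside 16.5% of all tested. The most abundant, let-7f-5p, read 2686 and 3129 against 3496 and 4362 (change 0.43, limma adjusted p = 0.162). The miR-17-92 group and its paralogs, which promote proliferation, had 15 tested strands, no call and a median of -0.01. miR-92a-3p, the most abundant miRNA of these libraries, was level at 96642 and 90265 in the ICM and 91648 and 96222 at 12 hours (change 0.01).

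The Sfmbt2 cluster, a rodent-specific array expressed in placenta and early embryo, had 30 tested strands and no call. Several have identical values in every library, which leaves 24 separate measurements. Their median was -0.39, and 5 of the 24 were lower and 0 higher at an unadjusted p below 0.05, beside 13.6% and 16.5% of all tested. Under other settings 3 strands fell with the floor at 10 reads, 3 without the filter, 2 when rescaled to the same total, 4 with the spread from all 18 libraries and 1 without 12-hour replicate 1. With 1 added to the deposited values 1 rose. The most abundant of them, miR-466a-3p, read 2529 and 2896 against 2119 and 1871 (change -0.44). Of miR-183, miR-96 and miR-182, an epithelial cluster, miR-182-5p read 19224 and 21746 against 28448 and 23645 (change 0.34), and none of its 5 tested strands passed. The list of miRNAs induced by growth factor, CREB, NF-kappa-B or hypoxia signals had 8 tested strands, of which miR-212-5p and miR-221-5p rose, beside 7.59% of all tested. Its median was -0.14, and its most abundant member, miR-22-3p, read 21399 and 21321 against 14161 and 17094 (change -0.46, limma adjusted p = 0.0827).

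Of the 6 canonical falls, that of miR-486-5p was the largest. miR-486 lies in the ankyrin gene Ank1 and is best known from red blood cells and muscle. It read 2018 and 2558 in the ICM and 236 and 216 at 12 hours, a log2 change of -3.33 (SE 0.38, limma adjusted p = 0.00145). Both ICM libraries were well above both 12-hour libraries, and the call held under all 16 other settings in which it could be tested. The entry miR-3107-5p has the same value in every library and is counted among the high numbers, so the fall is 1 measurement listed under 2 names.

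Beside this fall stand the other blood markers. The 8 blood entries summed to 0.374% and 0.469% of all normalized counts in the ICM and to 0.0850% and 0.0752% at 12 hours, and miR-486-5p was the largest part of the ICM sums. Only miR-486-5p of the 4 tested passed. The red cell marker miR-451a read 49 and 0 in the ICM and 0 in both 12-hour libraries, and miR-144-5p and miR-142-3p were at 0 in all 4. Lymphoid miR-150-5p read 65 and 81 against 33 and 21 (change -1.28, limma adjusted p = 0.0827), and miR-142-5p 120 and 260 against 246 and 294. miR-223-3p read 0 and 19 against 29 and 35 (change 0.23), so 2 of the 4 tested had a change above 0. The part of blood RNA in the fall of miR-486-5p was not tested.

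miR-714 read 870 and 583 in the ICM and 260 and 50 at 12 hours (change -2.64, limma adjusted p = 0.0399). Its change was -1.45 without 12-hour replicate 2, and the call was lost there, without either ICM library and when centred on the median miRNA. miR-30a-5p, a member of the broadly expressed miR-30 family, read 5797 and 5098 against 3172 and 2406 (change -0.98, limma adjusted p = 0.0412), and its call was lost when any 1 of the 4 libraries was left out and under either other scaling. The family did not move as one. miR-30c-2-3p fell (114 and 130 against 38 and 28), miR-30b-5p read 82 and 68 against 135 and 170 without passing, and the median of the 10 tested strands was -0.04. miR-30c-2-3p, miR-1194 and miR-147-5p complete the 6 falls and are named for that reason only. The 12-hour values of miR-1194 and miR-147-5p were at or below 25, under the floor, their calls were lost without either 12-hour library, and that of miR-30c-2-3p without 12-hour replicate 2. Since only 3 canonical falls met the rule for naming, the next largest are given as values: miR-466m-3p with 125 and 189 against 106 and 0, and miR-340-3p with 179 and 140 against 88 and 50.

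Of the marker lists of other cell types, only blood and striated muscle had a member that passed. The fibroblast and smooth muscle list, with 6 tested strands, took 1.65% and 1.85% of normalized counts in the ICM and 1.54% and 1.28% at 12 hours, and none passed. In that list miR-10b-5p was the most abundant, at 5955 and 7709 against 7372 and 6587, while miR-10a-5p read 1974 and 2800 against 1260 and 1220 (change -0.92, limma adjusted p = 0.138). The neural list took 0.125% to 0.163% in all 4 libraries with no call, miR-124-3p and miR-9-3p being at 0 in all 4. The endoderm and liver list took 0.256% to 0.313% with no call. In it miR-215-5p was listed at 0 in both ICM libraries and at 52 and 67 at 12 hours (limma adjusted p = 0.153), and miR-375-3p read 49 and 16 against 66 and 184 (change 1.59, limma adjusted p = 0.127). These 2 endoderm strands, 1 neural strand, miR-219a-1-3p (33 and 87 against 146 and 120), and miR-133a-3p were higher at an unadjusted p below 0.05, and miR-10a-5p and, of the blood list, miR-486-5p and miR-150-5p were lower. The part of such cells in the results was not tested. The endothelial marker miR-126a-5p read 131 and 121 against 106 and 85. Of 7 striated muscle strands miR-133a-3p alone was tested, and it rose from 0 and 43 to 111 and 110 (change 1.69, limma adjusted p = 0.0096). The muscle markers miR-208a-3p, miR-208b-3p and miR-499-3p were at 0 in all 4 libraries.

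The entries numbered 1900 or higher took a larger part of the 12-hour libraries. Their share of all normalized counts was 18.5% and 18.9% in the ICM and 23.6% and 31.5% at 12 hours, a difference of 8.85 percentage points. Both 12-hour values were above both ICM values, but the 12-hour libraries differed by nearly as much from each other. An exact two-sided permutation test over 4 libraries gave p = 0.333, the smallest it can give, so the design cannot reach 0.05. Moving the border to number 1000 gave 8.90 points. Leaving out 12-hour replicate 2 gave 4.90 points.

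A single entry carried much of that difference. miR-5126 lies at chr1:84695890-84695911 (plus strand), where GENCODE annotates no gene on this strand. It read 11241 and 11882 in the ICM and 40560 and 66294 at 12 hours, with a log2 change of 2.17 (SE 0.26, limma adjusted p = 0.00157). Its share went from 1.87% and 1.90% to 6.34% and 8.81% of normalized counts. Without it the share of the high numbers was 17.0% and 17.3% in the ICM and 18.4% and 24.9% at 12 hours, a difference of 4.51 points.

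miR-2137, in an intron of Zfp185 on the X chromosome, went from 6564 and 4161 to 17870 and 21116 (change 1.89, SE 0.27, limma adjusted p = 0.00365). miR-3960 went from 326 and 291 to 1492 and 2016 (change 2.49, SE 0.21, limma adjusted p = 8.96e-04), the lowest adjusted p of the comparison. Its ICM values nearly coincided and lay far below both 12-hour values. miR-7016-3p, in an intron of Tmem39b, went from 87 and 350 to 795 and 899 (change 2.28, limma adjusted p = 0.0377). That change was 1.27 without ICM replicate 1, and its call was lost there and without either 12-hour library. miR-5099, with 7521 and 17975 in the ICM and 23271 and 31937 at 12 hours, had groups that did not overlap but did not pass (change 1.23, limma adjusted p = 0.0842).

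**Figure D4:**
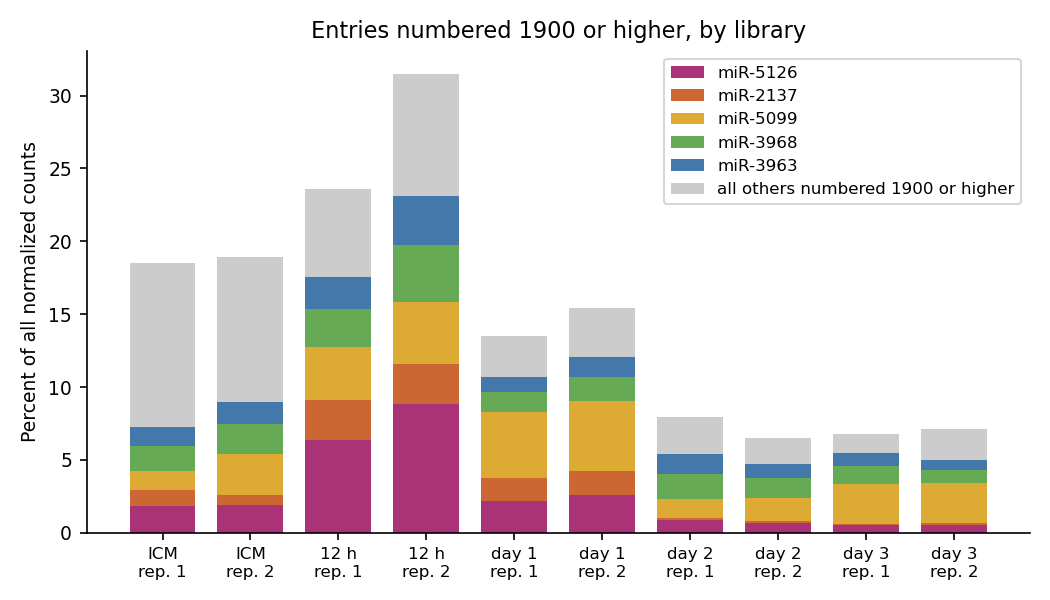
Percent of all normalized counts held by entries numbered 1900 or higher in each library of days 0 to 3. Stacked parts show miR-5126, miR-2137, miR-5099, miR-3968 and miR-3963, with all others in 1 part. That last part includes miR-5130, which went the other way, from 3.83% and 1.96% in the ICM to 1.38% and 1.71% at 12 hours. The 12-hour bars (23.6% and 31.5%) are the tallest, and the part of miR-5126 in them (6.34% and 8.81%) exceeds that in all other libraries shown.

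The other 8 high-numbered rises were small in reads, each with a mean under 100 normalized counts, and 5 of the 12 rises had both ICM libraries at or below the floor. They are named to complete the count: miR-6385, miR-6921-5p, miR-6921-3p, miR-5113, miR-6936-5p, miR-7222-3p, miR-3066-5p and miR-7224-3p. miR-6385 was listed at 0 in both ICM libraries and at 163 and 127 at 12 hours. miR-5113 read 0 and 16 in the ICM, 88 and 88 at 12 hours, and 0 in all 6 later libraries. On the floored scale none of its groups had any spread, so its limma adjusted p = 0.0018 rests on the spread of other miRNAs. The 2 strands of miR-6921, a hairpin in an intron of the lipid-synthesis regulator Srebf1, rose together, from 0 and 40 to 147 and 191 and from 49 and 50 to 142 and 131. The 5p strand shares the seed GAGGGGC with miR-423-5p, which stood at 22911 and 23700 against 25384 and 27731 (change 0.19) and was therefore far more abundant in every library.

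Falls among the high numbers included entries that nearly vanished. miR-6968-5p, in an intron of Phf1, read 772 and 512 in the ICM, 142 and 165 reads, and was listed at 0 in both 12-hour libraries. The fitted change of -4.53 (limma adjusted p = 0.00145) depends on the floor and is no bound. miR-6236 read 1077 and 332 against 73 and 0 (change -3.75, limma adjusted p = 0.00776). miR-7000-5p, in an intron of Mapk8ip1, was the most abundant of them, with 6270 and 4788 against 844 and 693 (change -2.84, SE 0.48, limma adjusted p = 0.00776). The calls of miR-6236 and miR-7000-5p were lost without 12-hour replicate 2.

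miR-7667-5p, in an intron of Tbc1d22b, read 337 and 403 against 68 and 42 (change -2.79), and miR-6954-5p 179 and 226 against 23 and 21 (change -2.89). miR-7005-5p, in an intron of the laminin gene Lama5, read 141 and 211 against 50 and 42 (change -1.91). miR-6905-3p, in an intron of Med23, read 76 and 360 against 31 and 0 (change -2.51). All of these had adjusted p-values of 0.0341 or less in limma. The call of miR-7005-5p was lost without 12-hour replicate 2, that of miR-6905-3p without either 12-hour library, and the latter's change was -1.39 without ICM replicate 2. miR-7023-3p, miR-7663-5p and miR-3471, outside the naming rule, complete the 11, and the call of miR-3471 was lost without ICM replicate 2 or either 12-hour library.

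The border at number 1900 says nothing by itself about how a small RNA is made, so features that the border did not use are given. Another arm of the hairpin was listed at all for 268 of the 303 tested canonical miRNAs and for 69 of the 145 tested high numbers. It was above 0 in at least 2 of the 4 libraries for 167 of those 268 (62.3%) and for 22 of those 69 (31.9%). Among the miRNAs that changed and had another arm listed, it was 21 of 24 (87.5%) and 3 of 13 (23.1%). The 3 were both strands of miR-6921 and miR-6936-5p. Canonical changes whose listed other arm was not seen so, or that had none listed, were miR-212-5p, miR-26a-5p, miR-676-3p, miR-133a-3p, miR-486-5p, miR-714 and miR-1194. Both arms under 1 hairpin name were tested for 62 canonical and 5 high-numbered hairpins, and their changes had the same sign in 36 and 4 of them.

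Base composition and place differed too. The median GC content of tested strands with a RefSeq sequence was 47.6% in the canonical class (245 strands) and 58.7% among the high numbers (122 strands). For rises it was 50.0% and 62.2%, and for high-numbered rises the median G content was 41.0%, against 29.2% of all tested high numbers. Of the 9 high-numbered falls with a sequence, 7 lay in introns on the strand of their host gene (77.8%), against 71 of 122 tested (58.2%). These shares are descriptions, and their part in the changes was not tested.

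The early changes continued differently in the libraries of days 1 to 3. miR-212-5p was at 0 and 32 on day 1, at 0 in both libraries of day 2, and at 0 and 11 on day 3. miR-346-5p was at 17 or less in all 6 later libraries, and miR-28a-3p read 145 and 81 on day 1 and 77 and 137 on day 3. The 12-hour libraries thus held the highest values of these 3 miRNAs among the 10 libraries of days 0 to 3. miR-5126 read 14900 and 17534 on day 1 and 5162 and 3647 on day 3, and miR-2137 read 10831 and 10619, then 601 and 883.

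Other rises went on. miR-434-5p read 367 and 342 on day 1, 704 and 683 on day 2, and 1106 and 968 on day 3. miR-485-5p read 473 and 537, then 707 and 1004, then 640 and 740, and miR-676-3p 571 and 684, then 842 and 847, then 678 and 529. miR-26a-5p stood at 6649 and 7225 on day 1 and at 19046 and 12240 on day 3. The fall of miR-486-5p was followed by 192 and 191 on day 1 and 779 and 339 on day 3, all below both ICM values.

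**Figure D5:**
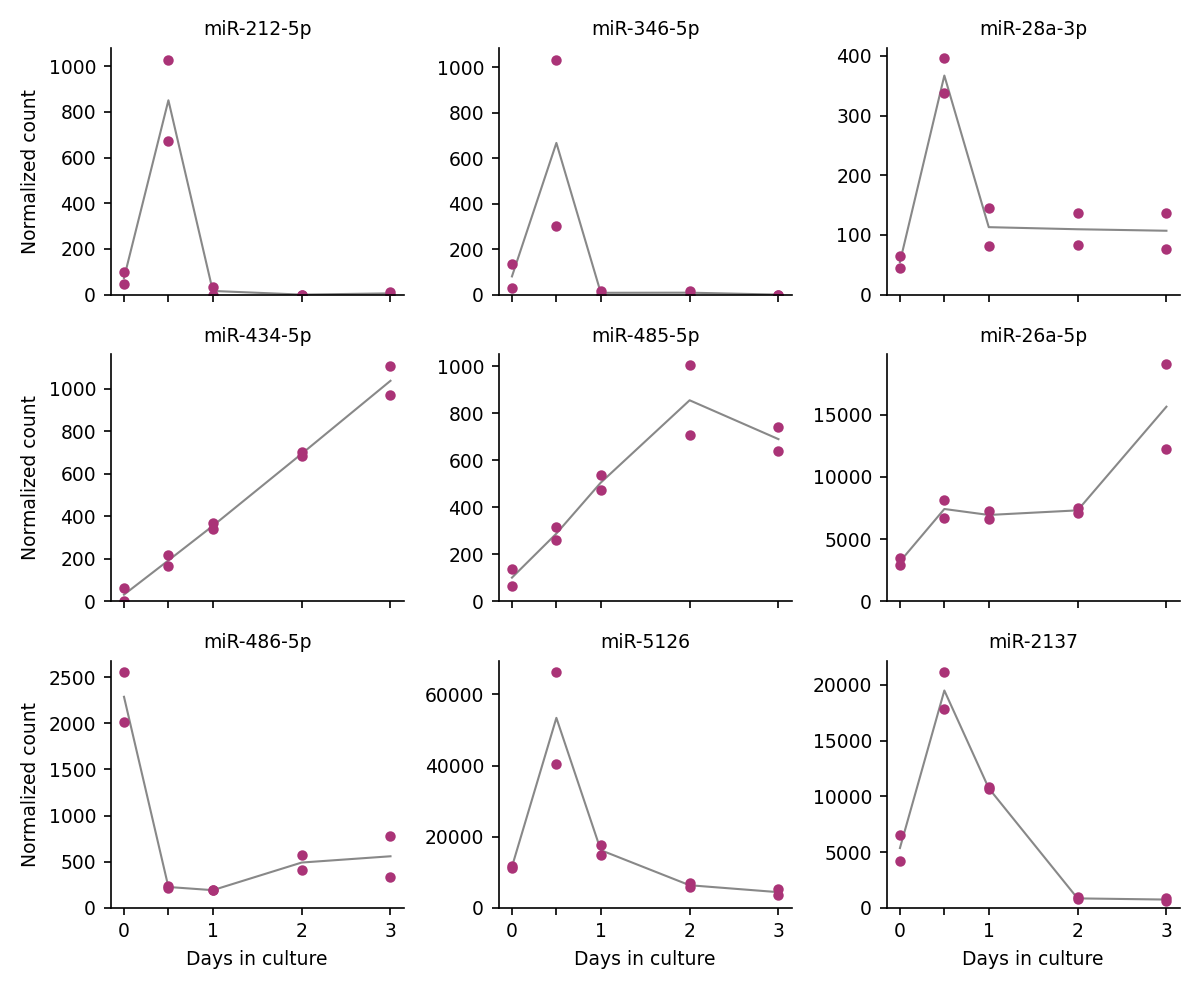
Normalized counts of 9 miRNAs by days in culture, with 1 point per library, a line through the group means and a linear axis from 0 in each panel. miR-212-5p, miR-346-5p, miR-28a-3p, miR-5126 and miR-2137 have their highest points at 12 hours, while miR-434-5p and miR-26a-5p have them on day 3.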

How the data were processed

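Small RNA was sequenced on the Illumina GAIIx per the series' design text. The authors deposited 1 table of normalized counts, rounded to whole numbers (a score here, since the raw counts were not used). Adapter trimming with cutadapt, DESeq2 1.30.0 and the mm10 build are named per the submitters' processing notes; which aligner and which miRNA set were used is not given in the sources used here. The step of 1 read was found from values below 1000 (at least 99% within 0.5 of a multiple).

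Values were floored, log2 transformed and tested with limma 3.58.1 (R 4.3.3, trend and robust options) for 12 hours minus ICM, with the spread taken from the 10 libraries of days 0 to 3 in 5 groups (5 residual degrees of freedom) and Benjamini-Hochberg adjustment. The fit was tested on simulated data. Per class, miRNAs with an adjusted p below 0.05, a mean of at least 100 and groups that did not overlap were named by size (12 and 12 below number 1900, 8 and 8 above, filled to 5 with values that did not pass), besides the 8 most abundant, the most abundant of each list and the other arms. The 28 lists, members and rules were chosen with earlier results of these data known. Alternatives changed the scaling, floor, filter, spread, weights and libraries, and 2 of them, counting identical entries once and leaving out miR-5126, were chosen after seeing the data. Positions are from RefSeq and hosts from GENCODE, both on GRCm38.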

Additional observations from a re-analysis of the deposited data

How the results depend on the processing

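The 34 rises and 17 falls changed by over 1.5 times under these settings. Without the filter 14 rose. With all 4 libraries required above the floor 19 rose and 9 fell. With the spread from the 4 libraries 4 rose and 4 fell, from all 18 libraries 68 and 49, and with array weights 12 and 8. When rescaled to the same total 26 fell, and with entries numbered 1900 or higher left out and the rest rescaled 5 fell, 4 of them among the 6 canonical falls reported. When each library was left out in turn (the lone library of a group is assumed to vary like the others), 10 to 52 rose, fewest without 12-hour replicate 2 and most without ICM replicate 2, and 11 to 22 fell, fewest without ICM replicate 2. The difference in the share of entries numbered 1900 or higher ran from 4.90 to 12.8 percentage points, lowest without 12-hour replicate 2 and highest without replicate 1. No change of a miRNA that passed changed sign under the alternatives run. Adding 1 to the deposited values gave 45 and 14, of which 19 and 4 were among those reported. With a replicate block 32 rose and 15 fell, and miR-125a-3p, miR-151-5p, miR-30a-5p and miR-147-5p no longer passed (limma adjusted p = 0.0619 to 0.0713). Correlations of same-numbered libraries' deviations ran from -0.26 to 0.12 over 10 pairs of groups (0.11 for ICM and 12 hours), so the numbers were not taken to pair the libraries. The floor of the shallowest of the 4 libraries is the floor used. For the other changes in calls the cause was not tested. Depth limits low values: 87 of the 448 tested miRNAs were at 0 in ICM replicate 1 and 23 in ICM replicate 2.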

Other observations

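The largest difference of the comparison belonged to a miRNA that did not pass. miR-92b-3p, a relative of miR-92a, was listed at 0 in ICM replicate 1 and at 4651 in ICM replicate 2, the worth of 1500 reads, and at 14159 and 19669 at 12 hours (log2 change 5.55, limma adjusted p = 0.127). ICM replicate 1 had an estimated depth of 111000 reads, so a listed 0 there stands far below the other ICM library. miR-344-5p had the same pattern at a lower level, at 0 and 419 in the ICM. miR-6931-5p was at 277 and 0 in the ICM and at 0 and 322 at 12 hours. These 3 entries were the only ones with a 0 in one library of a pair and at least 10 times the floor in the other, and the cause was not tested. The rule needs a listed 0 and so leaves out miR-7025-3p. It read 0 and 161 in the ICM and 19 and 8197 at 12 hours (change 2.83, limma adjusted p = 0.422).

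Among miRNAs processed without Drosha, the mirtron miR-877 had arms with opposite differences. miR-877-3p read 1213 and 713 in the ICM and 464 and 386 at 12 hours (change -1.14, limma adjusted p = 0.0612), and miR-877-5p 1544 and 955 against 2311 and 1535 (change 0.63, limma adjusted p = 0.328). The 3p groups did not overlap and the 5p groups did. Neither passed, and the difference between the arms was not tested. The imprinted Gnas miRNAs were level, with miR-298-5p at 15836 and 19194 against 15751 and 17578.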
